A study of Homo sapiens with 7 samples.

Results

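A set of 292 genes had a higher FPKM at Day 1 or Day 2 of JMJD3c expression than before it or at Day 4. The value was also higher than in cells with a JMJD3c that lacks catalytic activity, untreated or after 4 days of Dox. The members were chosen from the FPKM (fragments of a gene, scaled to transcript length and library size) of 7 libraries. The larger value of Day 1 and Day 2 had to be above 4 FPKM and above 1.5 times the value in each of 4 references, which were Day 0, Day 4, and the untreated and the Dox-treated JMJD3c mut-hESCs. Entries with a lower Cufflinks bound of 0 at the peak and BMP4 were left out. Of 22670 listed genes, 20187 lie on chromosomes and 10182 of these were above 4 FPKM at Day 1 or Day 2. The level and the ratio were met by 312 genes, 19 of which had a lower bound of 0 at the peak. The remaining 292 members were 2.87% of the 10182 genes. The peak was at Day 1 for 171 members and at Day 2 for 121.

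SEES-3 is a human embryonic stem cell (hESC) line. The JMJD3c-hESCs carry a doxycycline (Dox)-inducible, HA-tagged catalytic domain of the histone demethylase JMJD3 (KDM6B) with a nuclear localization signal, on a piggyBac transposon, in cells that stably express the reverse Tet transactivator. RNA was taken before Dox (Day 0) and after 1, 2, 3 and 4 days in 1 µg/ml Dox. A second line, the JMJD3c mut-hESCs, carries the same kind of transgene without catalytic activity. Its RNA was taken from untreated cells and after 4 days of Dox. This line has no library at Day 1 or Day 2 of Dox, so a short rise in it would not be seen. The cells were kept without feeders, and whether a library came from 1 clone or several is not given in the sources used here. Each of the 7 conditions had 1 library, so no difference between conditions has a replicate check, and no test was made. The values that chose the members are given as a description. The intervals given with FPKM values are the 95% bounds of Cufflinks, which cover the uncertainty of an FPKM within its own library, and not the spread between cultures.

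Trimethylation of lysine 27 on histone H3 (H3K27me3) is laid down by Polycomb repressive complex 2 and marks silent developmental genes in hESCs. JMJD3 removes this mark. A gene whose RNA is high for a short time after an inducer is given, and low again later, is called transiently expressed, and the developmental regulators of early embryos often have such a course.

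The 8 hESC markers were above 4 FPKM, and POU5F1, the core pluripotency factor, lay between 619 and 841 FPKM in the 7 libraries. KDM6B was at 3.45, 158, 212, 248 and 282 FPKM on Days 0, 1, 2, 3 and 4. In the JMJD3c mut-hESCs without and with Dox, KDM6B was at 2.40 and 454 FPKM, so the Dox-treated mutant line had the highest value. The transgene holds KDM6B sequence, and its part in these values was not tested. The summed FPKM of 8 hESC markers went from 2621 at Day 0 to 1826 at Day 4. In the JMJD3c mut-hESCs the hESC sum was 2456 FPKM without Dox and 2127 FPKM with Dox. The sum of 4 primitive streak markers went from 5.75 to 103, and that of 4 definitive endoderm markers from 0.255 to 196. In the JMJD3c mut-hESCs without and with Dox, they were 6.745 and 4.37 FPKM for primitive streak, and 3.62 and 3.19 FPKM for definitive endoderm. The sum of 6 neural markers was 133, 177, 199, 223 and 231 FPKM on Days 0, 1, 2, 3 and 4, and 106 and 129.8 FPKM in the JMJD3c mut-hESCs without and with Dox. The sum of 7 fibroblast markers went from 196 to 859 FPKM, of which VIM, an intermediate filament gene that many cell types express, was 46.9 and 704 FPKM, and DCN and LUM were at 0 in all libraries. In the JMJD3c mut-hESCs without and with Dox, the fibroblast sum was 137 and 268 FPKM, and VIM was 44.1 and 138 FPKM. The sum of 8 trophoblast and amnion markers was 4.66, 7.6, 7.69, 4.89 and 6.94 FPKM on Days 0, 1, 2, 3 and 4, with 6.37 and 4.2 FPKM in the JMJD3c mut-hESCs, so it was highest at Day 2, at a low level. PAX6 was the single marker on these lists that is a member. The part of these cell types in the levels of the members was not tested. In bulk RNA, fewer cells of a type and less RNA per cell cannot be told apart.

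The promoters of 4 members that the results turn on are shown first: SESN3 and OLIG3 had intervals apart from all references, PAX6 was on the list of neural genes, and BST2 was on the list of interferon genes. Each runs 5′ to 3′ from 250 bases before to 50 bases after the RefSeq gene start on GRCh38.p14, at chr11:95232426-95232725 (minus strand) for SESN3, chr6:137494345-137494644 (minus strand) for OLIG3, chr11:31817912-31818211 (minus strand) for PAX6 and chr19:17405581-17405880 (minus strand) for BST2. Capitals mark matches, on either strand, to the motifs searched: TATAAA and the GC box GGGCGG in OLIG3, the GC box, the cyclic AMP response element TGACGTCA and the NF-Y box CCAAT in PAX6, and the NF-Y box and the interferon-stimulated response element (ISRE) in BST2. The SESN3 window held no match.
SESN3: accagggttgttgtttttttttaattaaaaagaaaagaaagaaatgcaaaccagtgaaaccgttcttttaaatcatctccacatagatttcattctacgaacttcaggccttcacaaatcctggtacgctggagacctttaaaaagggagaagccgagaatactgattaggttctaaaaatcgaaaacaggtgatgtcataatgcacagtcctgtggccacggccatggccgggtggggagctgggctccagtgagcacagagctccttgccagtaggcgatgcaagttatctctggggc
OLIG3: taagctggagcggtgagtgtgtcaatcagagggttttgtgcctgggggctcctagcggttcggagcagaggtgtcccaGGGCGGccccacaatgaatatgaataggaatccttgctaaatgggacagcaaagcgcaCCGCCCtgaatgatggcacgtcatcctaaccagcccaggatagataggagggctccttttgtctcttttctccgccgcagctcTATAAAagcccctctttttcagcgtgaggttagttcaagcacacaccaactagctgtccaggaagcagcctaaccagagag
PAX6: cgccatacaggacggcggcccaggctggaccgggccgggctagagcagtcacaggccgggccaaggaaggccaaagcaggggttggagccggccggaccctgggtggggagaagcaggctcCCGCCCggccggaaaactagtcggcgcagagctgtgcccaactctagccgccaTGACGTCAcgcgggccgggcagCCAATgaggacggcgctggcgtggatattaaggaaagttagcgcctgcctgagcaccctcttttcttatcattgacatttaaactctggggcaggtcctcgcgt
BST2: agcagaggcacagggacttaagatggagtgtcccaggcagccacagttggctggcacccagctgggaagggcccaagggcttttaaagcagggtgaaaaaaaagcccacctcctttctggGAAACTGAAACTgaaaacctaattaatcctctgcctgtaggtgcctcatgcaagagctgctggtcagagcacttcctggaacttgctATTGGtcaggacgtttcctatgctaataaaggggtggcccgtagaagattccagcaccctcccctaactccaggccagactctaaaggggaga

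**Figure D1:**
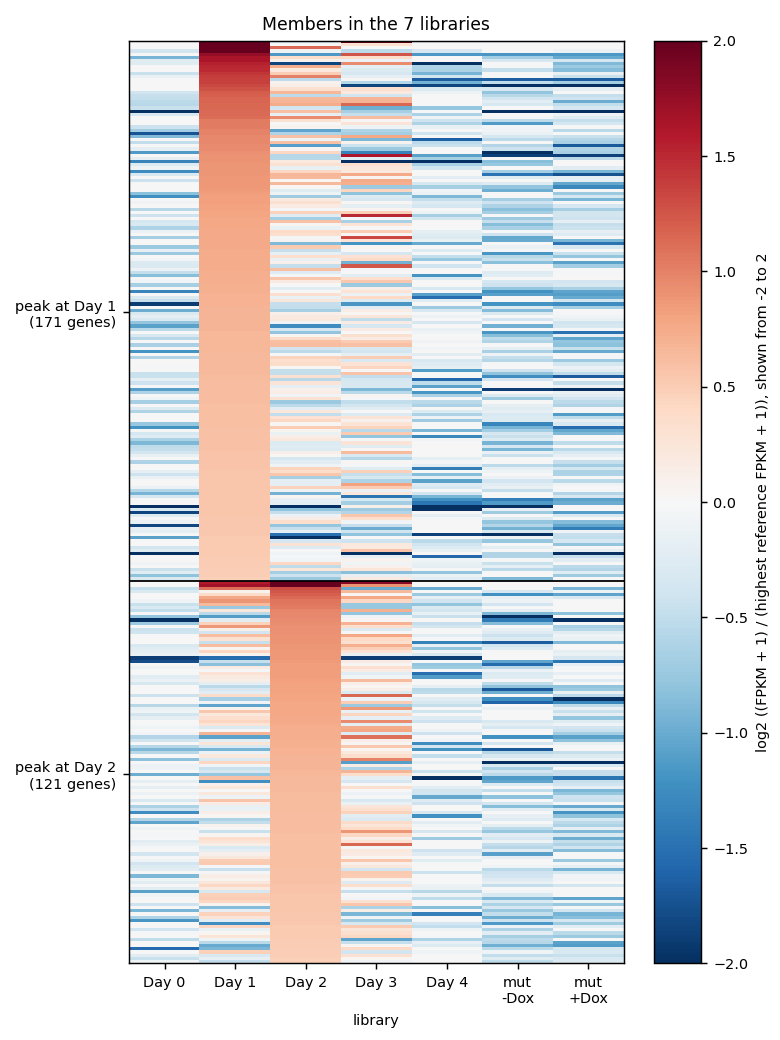
The 292 members as rows and the 7 libraries as columns, with color giving log2 of FPKM + 1 over the highest reference FPKM + 1. Members are split by the day of the peak (171 at Day 1 above the line, 121 at Day 2 below it) and sorted by this ratio at the peak, which the choice of members keeps above 0. The Day 3 column, which the choice did not use, is mixed, and 162 members were above every reference there.

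The median member had 8.62 FPKM at its peak, against 16.8 FPKM for all 10182 genes above 4 FPKM at Day 1 or Day 2. Of the members, 181 (62%) peaked below 10 FPKM, against 29.8% of the 10182 genes. Between 4 and 8 FPKM, 133 of 2169 genes were members (6.13%). The share was 3.81% between 8 and 16 FPKM, 1.7% between 16 and 32 FPKM and 0.461% above 32 FPKM, where 13 of 2817 genes were members. Members were thus mostly genes of low FPKM, for which the deposited intervals are wide. At Day 0 the median width of the interval was 195% of the FPKM among members with a value above 0, and 65.4% among all genes above 4 FPKM in that library. At Day 1 the same widths were 121% and 52.96%. Of the 7 libraries, Day 0 had the widest intervals by this measure and the untreated JMJD3c mut-hESCs the narrowest, at 43.4% for all genes above 4 FPKM.

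**Figure D2:**
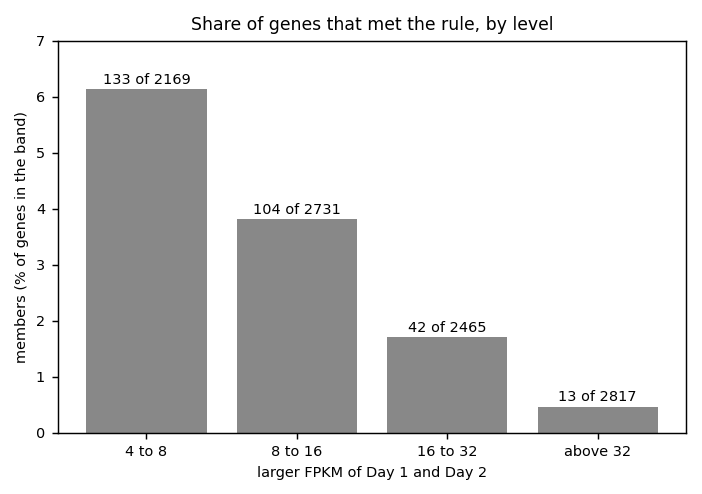
Share of genes that are members (percent, vertical axis from 0) in 4 bands of the larger FPKM of Day 1 and Day 2. It goes from 6.13% in the lowest band to 0.461% above 32 FPKM.

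The median ratio of the peak to the highest reference was 1.72, close to the 1.5 that the choice required. On the log2 scale with 1 FPKM added to both values, the median was 0.68 and the range was 0.48 to 3.67. A ratio above 2 was reached by 71 members (24.3%) and above 3 by 19 (6.51%), against 0.815% and 0.285% of the 10182 genes. The choice of members fixes most of this difference. At the edge of the ratio, HGSNAT (a lysosomal acetyltransferase) was just inside, with 7.59 FPKM at Day 2 against 5.06 FPKM at Day 0, and CRIP1 was inside with 11.97 against 7.97 FPKM. HBP1, with 28.4 against 18.9 FPKM, and ZNF747, with 6.57 against 4.39 FPKM, were just outside. At the edge of the level, DNAJC25-GNG10 (4.00 FPKM) and RNF217 (4.04 FPKM) were inside, and GPR173 (3.97 FPKM) was outside. The highest reference was Day 0 for 99 members (33.9%), near the 33.8% of the 10182 genes. It was Day 4 for 94 members (32.2%, against 24.7%). The untreated JMJD3c mut-hESCs were highest for 55 (18.8%, against 20.3%) and the Dox-treated JMJD3c mut-hESCs for 44 (15.1%, against 21.1%). A total of 11 members (3.77%) were listed at 0 in at least 1 reference, against 0.501% of the 10182 genes.

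For 13 members (4.45%), the lower bound at the peak was above the upper bound of every reference, which held for 27 of the 10182 genes (0.265%). Both shares come from the libraries that chose the members. Leaving out TRIM39-RPP21, a readthrough entry that joins a pair of neighboring genes, 12 members remained, 8 with the peak at Day 1 and 4 with the peak at Day 2, and 11 of these are described. Against Day 0 alone, 32 members (11%) had intervals apart, and the share of all 10182 genes was 3.34%. For the remaining members, the interval at the peak reached into that of Day 0.

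**Figure D3:**
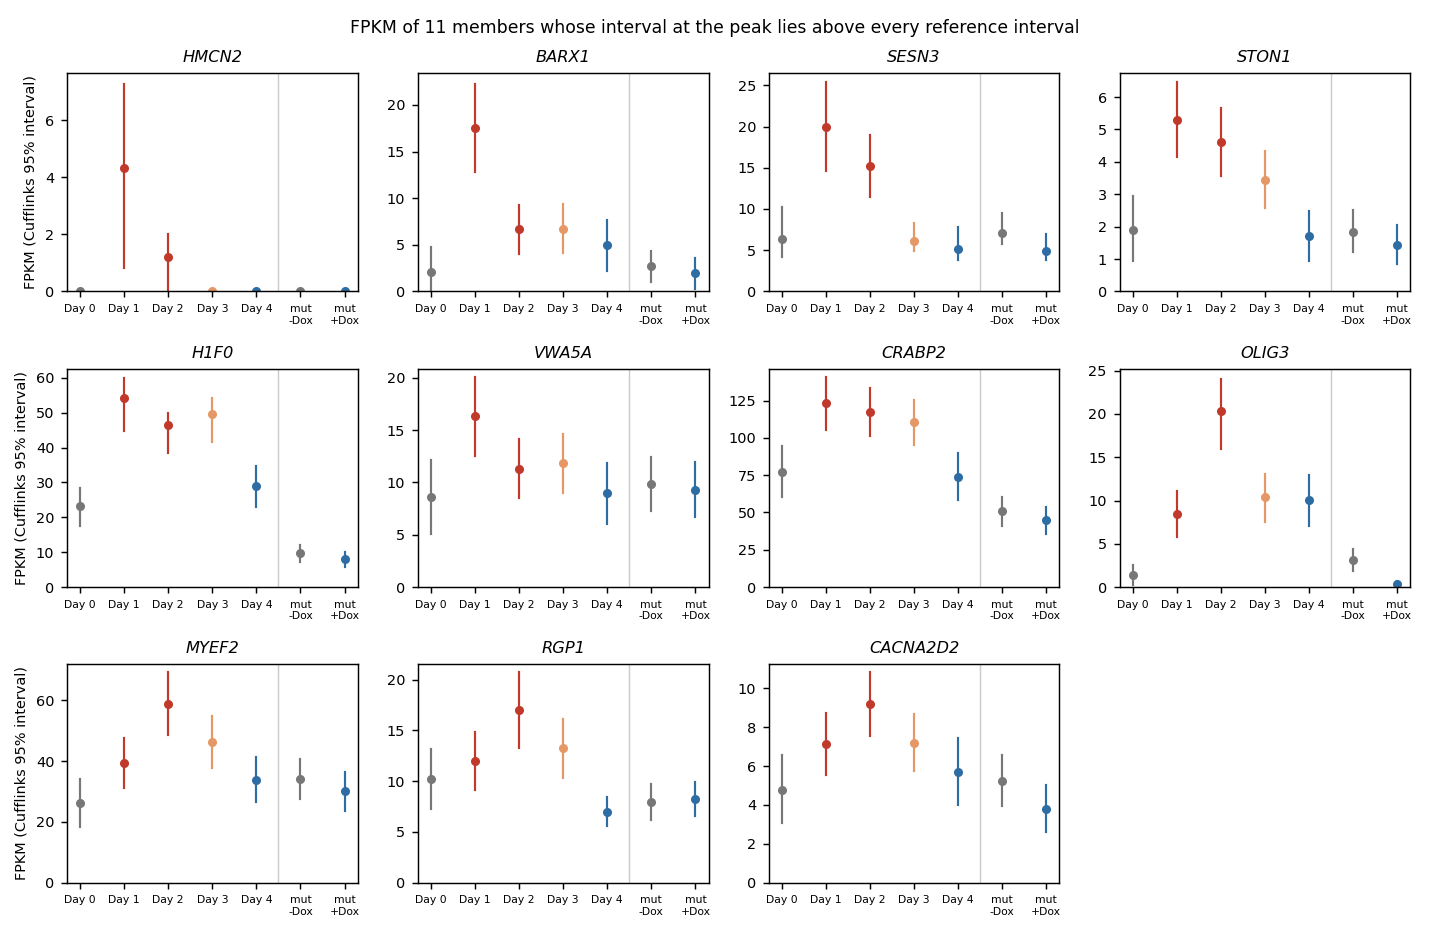
FPKM (vertical axes, from 0) of 11 members with intervals apart from every reference, in the 7 libraries, with bars for the Cufflinks 95% interval of each value. Day 1 and Day 2 are red, Day 3 is orange, untreated libraries are gray, and Day 4 and the Dox-treated JMJD3c mut-hESCs are blue. HMCN2 is listed at 0 in every reference, with an interval from 0 to 0.

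BARX1 (hg19 chr9:96713905-96717654) encodes a homeobox transcription factor of craniofacial and stomach mesenchyme. It was listed at 2.11, 17.5, 6.66, 6.69 and 4.94 FPKM on Days 0, 1, 2, 3 and 4, and 2.68 and 1.95 FPKM in the JMJD3c mut-hESCs without and with Dox. The Day 1 interval of 12.8 to 22.3 FPKM lay above the highest reference bound of 7.71, and the log2 ratio to the highest reference, Day 4, was 1.64. Day 2 and Day 3 were close to each other and to Day 4, so the high value was that of Day 1. SESN3 (chr11:94898704-94965705) encodes sestrin 3, a stress-responsive inhibitor of the nutrient sensor mTORC1. Its values were 6.33, 19.9, 15.2, 6.14 and 5.11 FPKM on Days 0, 1, 2, 3 and 4, and 7.04 and 4.91 FPKM in the JMJD3c mut-hESCs without and with Dox. The interval was 14.6 to 25.4 FPKM at Day 1, against a highest reference bound of 10.2, with a log2 ratio of 1.38. Day 1 and Day 2 were both high, and Day 3 was back among the references.

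STON1 (chr2:48757310-48826025) encodes stonin 1, an endocytic adaptor, and was lower in level than SESN3. Its values were 1.9, 5.3, 4.62, 3.45 and 1.7 FPKM on Days 0, 1, 2, 3 and 4, and 1.85 and 1.45 FPKM in the JMJD3c mut-hESCs without and with Dox. Day 3 lay between the peak and the references in this gene. VWA5A (chr11:123986069-124018428) had 16.3 FPKM at Day 1, and between 8.59 and 11.8 FPKM in the other 6 libraries. The lower bound at its peak, 12.6, was just above the highest reference bound, 12.4.

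Both H1F0 and CRABP2 stayed high over Days 1, 2 and 3. H1F0 (chr22:38201114-38203442), the replacement linker histone H1.0 of cells that slow their division, was listed at 23.3, 54.1, 46.4, 49.7 and 28.9 FPKM on Days 0, 1, 2, 3 and 4, and 9.75 and 7.92 FPKM in the JMJD3c mut-hESCs without and with Dox. The interval was 44.7 to 59.9 FPKM at Day 1 and the highest reference bound was 34.7 FPKM. All 5 libraries of the JMJD3c-hESCs, Day 0 included, were above both libraries of the JMJD3c mut-hESCs. CRABP2 (chr1:156669398-156675608) encodes a protein that carries retinoic acid to its nuclear receptors. Its values were 77.4, 123, 118, 111 and 74.02 FPKM on Days 0, 1, 2, 3 and 4, and 50.8 and 44.9 FPKM in the JMJD3c mut-hESCs without and with Dox. The interval at Day 1 was 106 to 141 FPKM against a highest reference bound of 94.8 FPKM, and the log2 ratio was 0.66. As for H1F0, the JMJD3c mut-hESCs were below every library of the JMJD3c-hESCs. CRABP2 was the single member among 8 retinoic acid response genes above 4 FPKM.

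HMCN2 (chr9:133259836-133261889), an entry of 2054 bases at the gene of hemicentin 2, an extracellular matrix protein, was listed at 4.33 FPKM at Day 1, 1.19 FPKM at Day 2 and 0 in the other 5 libraries. Its interval at Day 1, 0.81 to 7.29 FPKM, was the widest of the 11 relative to its value, and a reference interval from 0 to 0 adds no uncertainty to the comparison.

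Among the 4 with the peak at Day 2, OLIG3 (chr6:137813336-137815531), a basic helix-loop-helix factor of dorsal neural progenitors whose promoter is shown above, was listed at 1.41, 8.46, 20.4, 10.3 and 10.1 FPKM on Days 0, 1, 2, 3 and 4, and 3.15 and 0.313 FPKM in the JMJD3c mut-hESCs without and with Dox. The Day 2 interval was 15.97 to 24.03 FPKM and the highest reference bound, that of Day 4, was 12.9 FPKM. Day 1, Day 3 and Day 4 were close to each other and all above Day 0 and the JMJD3c mut-hESCs, so OLIG3 had not returned to its Day 0 level at Day 4. MYEF2 (chr15:48431625-48470714) encodes a repressor named for the myelin basic protein gene. It was at 26.1, 39.4, 58.9, 46.1 and 33.9 FPKM on Days 0, 1, 2, 3 and 4, and 34.03 and 30.003 FPKM in the JMJD3c mut-hESCs without and with Dox. RGP1 (chr9:35749203-35758572) encodes a subunit of the exchange factor for the Golgi GTPase RAB6, and was listed at 17.01 FPKM at Day 2, with 13.3 FPKM at Day 3 and between 6.98 and 11.98 FPKM in the other 5 libraries. CACNA2D2 (chr3:50400233-50541675), an auxiliary subunit of voltage-gated calcium channels, was listed at 4.78, 7.11, 9.19, 7.2 and 5.71 FPKM on Days 0, 1, 2, 3 and 4, and 5.25 and 3.8 FPKM in the JMJD3c mut-hESCs without and with Dox. In MYEF2, RGP1 and CACNA2D2, Day 3 was the second highest library. The spans of these 3 genes overlap entries on the opposite strand, among them GBA2 at RGP1, which lay between 20.7 FPKM at Day 0 and 33.3 FPKM at Day 4, and was at 24.3 FPKM at Day 2. The libraries were made with a directional kit. Whether the counting used strand is not known, so reads of the overlapping parts cannot be told apart in these values. STON1 overlaps the readthrough entry STON1-GTF2A1L on its own strand, which was at 0.428 FPKM at Day 2 and near 0 elsewhere.

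Day 3 is the library that the choice of members did not use. The median log2 ratio of Day 3 to the peak was -0.67 over members, against -0.08 over the 10182 genes. It was -0.78 for members with the peak at Day 1 and -0.58 for those with the peak at Day 2. Since a member was chosen for a high value at its peak, a lower value in any other library is partly built in. Relative to the highest reference, the median at Day 3 was 0.04 for members and -0.26 for all 10182 genes. A total of 162 members (55.5%) were above every reference at Day 3, against 19.2% of the 10182 genes, and 17 (5.82%) were below the lowest reference, against 13.2%. The choice also required references that were low against the peak. Day 3 values above the references, here and in the counts that follow, are therefore partly built in as well.

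At Day 3, 41 members (14%) were still above 4 FPKM and above 1.5 times each reference. The same held for 102 of the 10182 genes (1%), these 41 included, and 1.5% of the 9754 genes above 4 FPKM at Day 3. For 19 members (6.51%), Day 3 was above the peak itself, against 37.4% of the 10182 genes whose Day 3 value was above the larger of Day 1 and Day 2. These 19 members go against the name of a peak at Day 1 or Day 2. They were PEX11G, RP11-618P17.4, WIPF1, SLC25A16, SNCG, AGA, GPX3, LIN7A, PIK3R1, TTC7B, PDE6G, PRICKLE1, TNRC6C, RINL, AGER, FAM114A1, PITPNM1, NBPF12 and PLEKHH3. AGA, a lysosomal amidase, was listed at 8.81 FPKM at Day 1 and 13.6 FPKM at Day 3. PIK3R1, the regulatory subunit of class I phosphoinositide 3-kinase, was at 12.2 FPKM at Day 2 and 12.4 FPKM at Day 3. The difference between these libraries was small for PIK3R1 and larger for AGA, whose Day 1 interval ran from 2.17 to 16.8 FPKM.

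**Figure D4:**
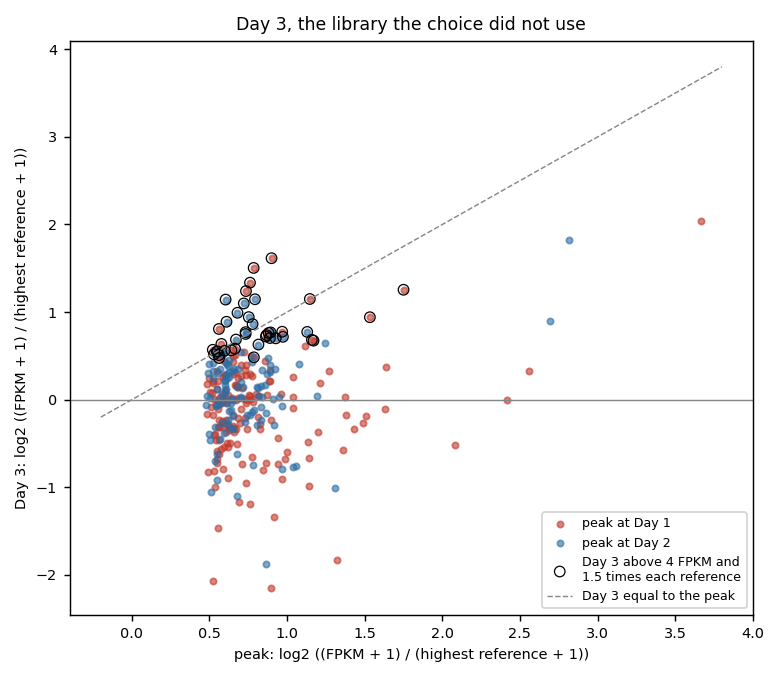
Each of the 292 members by its peak (horizontal axis) and its Day 3 value (vertical axis), both as log2 of FPKM + 1 over the highest reference FPKM + 1. Circled points are the 41 members above 4 FPKM and 1.5 times each reference at Day 3, and the 19 members above the dashed line were higher at Day 3 than at the peak.

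The other early day was lower than the peak by a median log2 of -0.72. In 29 members (9.93%), both days were above 4 FPKM and above 1.5 times each reference. This held for 32 of the 10182 genes (0.314%), and the choice of members fixes most of that overlap. Day 4 was above 1.5 times Day 0 in 61 members (20.9%), against 11.8% of the 10182 genes, and Day 0 was above 1.5 times Day 4 in 67 members (22.9%), against 16.9%. The median log2 ratio of Day 4 to Day 0 was -0.01, against -0.06 for all. In the JMJD3c mut-hESCs, 40 members (13.7%) had a ratio of Dox-treated to untreated above 1.5, against 5.35% of the 10182 genes. The opposite ratio was above 1.5 in 58 members (19.9%), against 5.74%. The shares were therefore larger among members in both directions, and the members were also lower in FPKM than the other genes. The part of the FPKM level in these shares was not tested.

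Of the 561 genes on 21 lists of pathways and cell types, 320 were above 4 FPKM at Day 1 or Day 2 and 6 of these (1.88%) were members, beside 2.87% of the 10182 genes. The members were OLIG3, PAX6 and LHX5 among 17 neural genes, BST2 and IRF9 among 7 interferon response genes, and CRABP2. The other 18 lists held no member, which at a share of 2.87% says little of a list of this size. Among these, no member was found in 8 primitive streak and mesoderm genes, 6 definitive endoderm genes, 28 Wnt, 14 BMP, 15 NODAL and Activin, 20 FGF and ERK feedback and 13 Notch genes above 4 FPKM. The same was true of 16 immediate early genes, 21 genes of the ATF4 and unfolded protein response, 17 p53 targets, 12 heat shock genes, 33 cell cycle genes and 37 histone lysine methylation enzymes. BMP4 itself was left out by the choice of members.

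A group of 17 transcription factors was made, like the other groups by role, after the members were seen. Genes of these roles were not counted among the 10182 genes. The size of a group therefore does not show whether its role is more common among members. Among the 17 transcription factors, the peak was at Day 1 for 13 and at Day 2 for 4, beside 171 and 121 of all 292 members. None of the 17 was above 4 FPKM and 1.5 times each reference at Day 3, or higher at Day 3 than at the peak. Over all members these shares were 14% and 6.51%, so the absence of both in a group of 17 says little. FEZF1, a zinc finger repressor of the forebrain, had the highest peak of the group and was listed at 6.64, 25.5, 24.04, 22.9 and 16.5 FPKM on Days 0, 1, 2, 3 and 4, and 8.2 and 5.11 FPKM in the JMJD3c mut-hESCs without and with Dox. Days 1, 2 and 3 were close to each other, and all 4 Dox days were above Day 0 and the JMJD3c mut-hESCs. PAX6, the paired-box regulator of eye and forebrain, was at 2.22, 9.62, 6.43, 2.72 and 5.91 FPKM on Days 0, 1, 2, 3 and 4, and 0.879 and 0.517 FPKM in the JMJD3c mut-hESCs without and with Dox. Its Day 1 interval, 4.94 to 16.8 FPKM, overlapped those of Day 0 and Day 4. The span of PAX6 overlaps RCN1 on the opposite strand, which was at 76.0 to 99.2 FPKM and thus far above PAX6.

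LHX5, a LIM homeobox factor of the forebrain, was at 3.49, 5.21, 5.56, 1.38 and 0.75 FPKM on Days 0, 1, 2, 3 and 4, and 2.19 and 1.37 FPKM in the JMJD3c mut-hESCs without and with Dox. Day 3 and Day 4 were below Day 0 in LHX5. SOX21, a repressor related to SOX2, was listed at 12.5 FPKM at Day 1 and 12.5 FPKM at Day 2, at 5.86, 5.68 and 4.1 FPKM at Days 0, 3 and 4, and at 8.17 FPKM without Dox and 5.01 with Dox in the JMJD3c mut-hESCs. SIX2, a homeobox factor of nephron progenitors, was at 1.68, 4.68, 3.56, 1.6 and 2.66 FPKM on Days 0, 1, 2, 3 and 4, and 0.545 and 0.156 FPKM in the JMJD3c mut-hESCs without and with Dox. MAF, a basic leucine zipper factor, had 0, 1.48, 5.2, 2.86 and 2.43 FPKM on Days 0, 1, 2, 3 and 4, and 0.648 and 0.252 FPKM in the JMJD3c mut-hESCs without and with Dox. In SIX2 and MAF, Day 4 was above Day 0 and above both libraries of the JMJD3c mut-hESCs. The other members of this group, PAX5, POU3F4, BCL6, BCL6B, BNC2, MEF2D, ARNT2, ARNTL and ZFX, had peaks between 4.31 and 16.1 FPKM, and in none of them were the intervals apart.

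**Figure D5:**
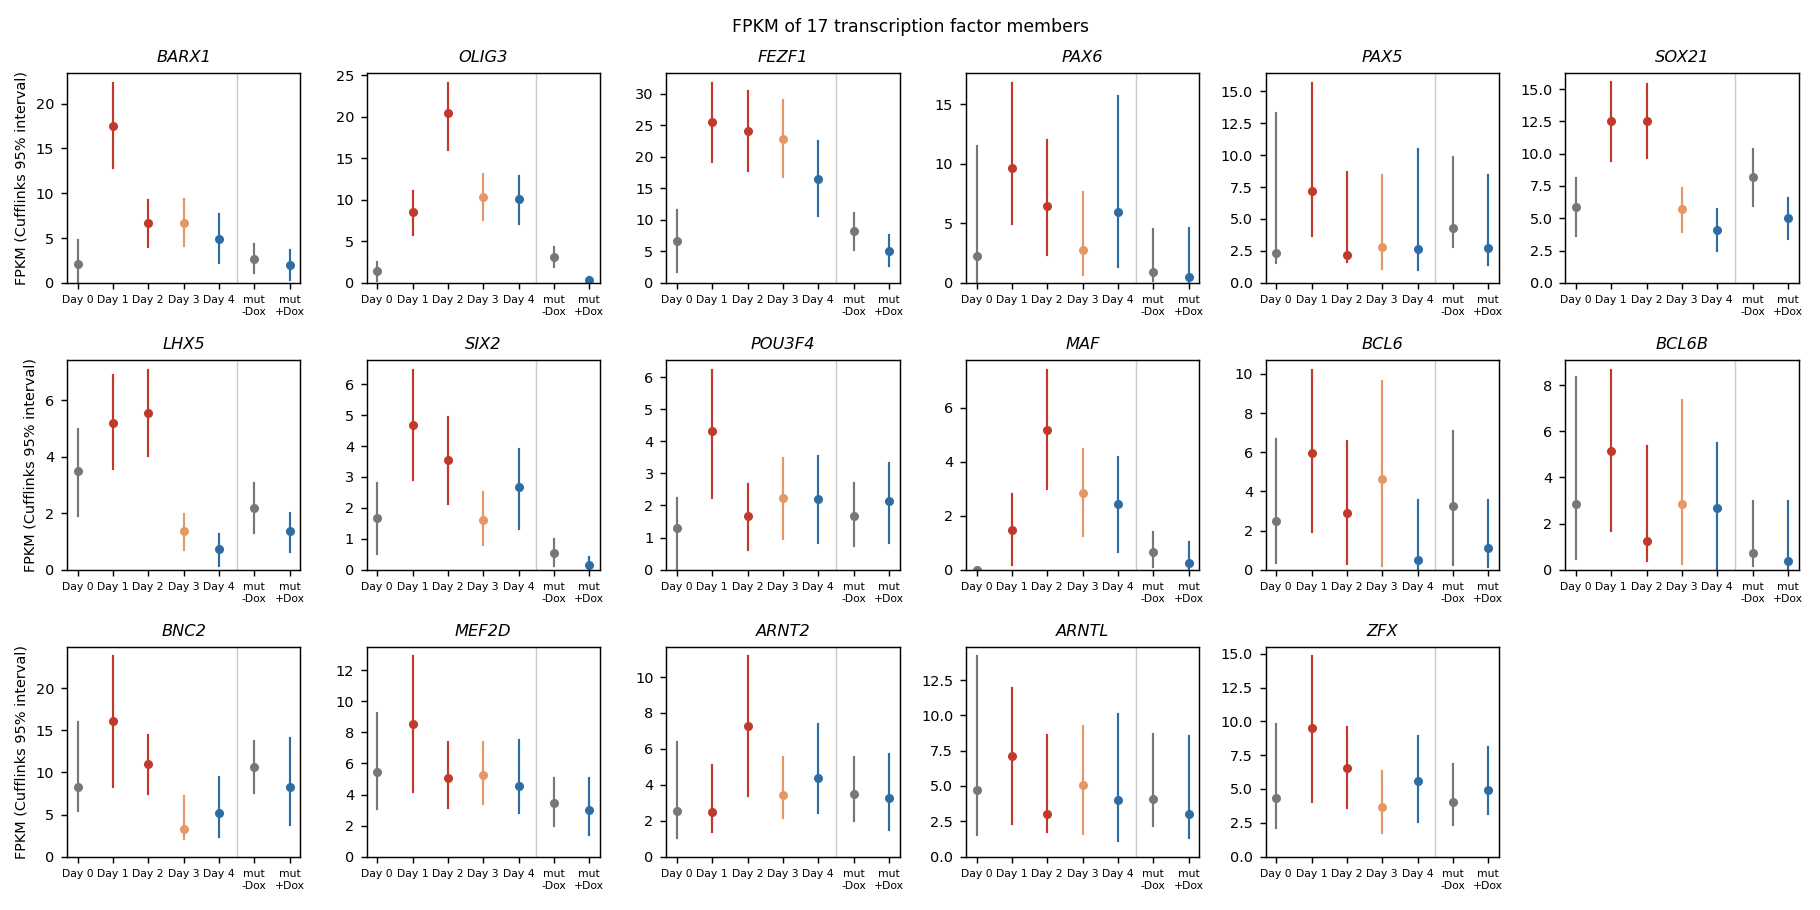
FPKM (vertical axes, from 0) of the 17 transcription factor members of this group in the 7 libraries, with bars for the Cufflinks 95% interval of each value and the same colors as for the 11 members with intervals apart. BARX1 and OLIG3 have intervals apart from every reference, and the other 15 do not.

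The group of interferon and antiviral genes held 4 members, 3 of them with the peak at Day 2. The share of such genes among all genes was not counted. BST2, which encodes tetherin, a membrane protein that holds budding viruses, was listed at 8.26, 11.03, 20.1, 8.54 and 4.52 FPKM on Days 0, 1, 2, 3 and 4, and 3.01 and 3.44 FPKM in the JMJD3c mut-hESCs without and with Dox. Its interval at Day 2, 12.5 to 24.7 FPKM, began just below the highest reference bound of 12.7 FPKM. IRF9, the DNA-binding subunit of the interferon-activated factor ISGF3, was at 3.21, 1.98, 9.57, 2.68 and 3.43 FPKM on Days 0, 1, 2, 3 and 4, and 5.16 and 3.31 FPKM in the JMJD3c mut-hESCs without and with Dox. The high value of IRF9 was that of Day 2 alone, and Day 1 was its lowest library. The antiviral cytidine deaminase gene APOBEC3D was at 5.51 FPKM at Day 2, and the ubiquitin ligase gene DTX3L was at 4.61 FPKM at Day 1. These 2 were not on the list of interferon response genes, and the other 5 listed genes above 4 FPKM were not members.

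Beside SESN3, 8 members have roles in nutrient, growth factor and survival signaling. ULK1, the kinase that starts autophagy, was listed at 13.9, 40.6, 21.1, 18.8 and 23.9 FPKM on Days 0, 1, 2, 3 and 4, and 10.1 and 17.3 FPKM in the JMJD3c mut-hESCs without and with Dox. Its Day 1 value lay outside its own deposited interval, 17.2 to 39.8 FPKM, as did the peak values of 2 other members, DGKZ and DHX8. CCNG2, an atypical cyclin of arrested cells, was at 6.26, 10.1, 13.99, 9.05 and 6.81 FPKM on Days 0, 1, 2, 3 and 4, and 7.22 and 6.17 FPKM in the JMJD3c mut-hESCs without and with Dox. BMF, a BH3-only protein that promotes apoptosis, was at 12.8 FPKM at Day 1, 7.73 FPKM at Day 0 and 8.48 FPKM at Day 4. The 2 genes differed in day, with CCNG2 highest at Day 2 and BMF at Day 1. INPP5D and PIK3C2B, which act on phosphoinositides, had peaks of 6.11 FPKM at Day 1 and 7.97 FPKM at Day 2. GADD45G, a stress-inducible growth arrest gene, was at 5.22 FPKM and KSR1, a scaffold of the RAF and MEK kinases, at 22.8 FPKM, both at Day 1.

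A group of heme genes held 4 members, and the share of such genes among all genes was not counted. ALAD, the second enzyme of heme synthesis, was listed at 9.08 FPKM at Day 1 and 9.46 FPKM at Day 2, with 5.08 FPKM at Day 0, 3.73 FPKM at Day 4 and 5.32 FPKM in the highest reference, the untreated JMJD3c mut-hESCs. PPOX, an enzyme near the end of the pathway, was at 17.7 FPKM at Day 1 and 10.9 FPKM at Day 0. FECH, which inserts the iron, was at 10.02 FPKM at Day 2, 4.84 FPKM at Day 0 and 6.65 FPKM in the Dox-treated JMJD3c mut-hESCs. EIF2AK1, the heme-regulated kinase of the translation factor eIF2, had 47.5 FPKM at Day 2 and between 27.6 and 36.03 FPKM in the other 6 libraries. Its lower bound at the peak, 37.5 FPKM, was just below the highest reference bound of 37.8 FPKM. The peak was at Day 2 for 3 of the 4, and the intervals of all 4 overlapped a reference.

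The lysosomal enzymes IDS and SGSH, which break down heparan sulfate, had 16.8 FPKM at Day 1 and 12.1 FPKM at Day 2, and Day 0 values of 6.69 and 7.32 FPKM. The highest reference of IDS was the Dox-treated JMJD3c mut-hESCs, at 10.7 FPKM. All 6 members with a role in glycosylation peaked at Day 1, as did 171 of all 292 members. Their peaks were at 6.10 to 8.34 FPKM. They were the sialyltransferase genes ST3GAL3 and ST3GAL6, ALG10 and ALG10B of the dolichol pathway, the mannosidase gene MAN1C1 and the fucose kinase gene FUK. ALG10 and ALG10B are close copies of each other, and how reads were divided between them is uncertain. All 5 members of the extracellular matrix and adhesion group, COL4A5, COL5A1, ITGB4, CTHRC1 and HMCN2, also peaked at Day 1. In groups this small, made after the members were seen, a shared peak day says little. The basement membrane collagen gene COL4A5 was at 3.05, 16.9, 11.9, 10.3 and 8.72 FPKM on Days 0, 1, 2, 3 and 4, and 5.09 and 4.07 FPKM in the JMJD3c mut-hESCs without and with Dox.

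The largest group by role was that of synapse and neuron genes, with 18 members, and their share among all genes was not counted. The peak was at Day 1 for 12 of them, beside 171 of all 292 members. STXBP5L, a regulator of vesicle fusion, was listed at 2.03, 6.78, 2.23, 1.04 and 0.579 FPKM on Days 0, 1, 2, 3 and 4, and 1.14 and 0.88 FPKM in the JMJD3c mut-hESCs without and with Dox. SHANK2, a scaffold of excitatory synapses, was at 11.8, 14.6, 26.8, 20.1 and 7.74 FPKM on Days 0, 1, 2, 3 and 4, and 11.7 and 14.1 FPKM in the JMJD3c mut-hESCs without and with Dox. STXBP5L was high at Day 1 alone, and SHANK2 at Days 2 and 3. NFASC, an adhesion molecule of axons, was at 13.2 FPKM at Day 2, 4.92 FPKM at Day 0 and 8.19 FPKM at Day 4. HTR1D, a serotonin receptor gene, was at 9.01 FPKM at Day 1 and 4.51 FPKM at Day 0. SNCG, which encodes a synuclein, was at 9.34 FPKM at Day 2, 9.96 FPKM at Day 3 and 5.03 FPKM in the highest reference, Day 4. In this group the intervals were apart for CACNA2D2 alone.

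Among 9 members grouped as chromatin genes, again without a share over all genes, HP1BP3, a linker histone-like protein, had the highest peak. It was at 60.6 FPKM at Day 2 and between 33.3 and 42.5 FPKM in the other 6 libraries. MED12, a Mediator subunit, was at 7.21, 20.01, 10.8, 11.6 and 11.1 FPKM on Days 0, 1, 2, 3 and 4, and 5.76 and 6.66 FPKM in the JMJD3c mut-hESCs without and with Dox. The catalytic subunit of a SWI/SNF remodeler, SMARCA2, was at 13.4 FPKM at Day 1, 5.97 FPKM at Day 0 and 8.33 FPKM in the untreated JMJD3c mut-hESCs, its highest reference. In MED12, Days 2, 3 and 4 were close to each other and below Day 1. TNRC6B and TNRC6C, partners of Argonaute in microRNA silencing, were at 11.97 and 11.7 FPKM at Day 2. At Day 3, TNRC6B was at 6.23 FPKM and TNRC6C at 11.8 FPKM. In all, 89 members were placed in 12 groups and 203 in none.

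The largest ratios to the references belonged in part to entries that share sequence with another entry. RPL36A-HNRNPH2, a readthrough entry, was listed at 13.9 FPKM at Day 1, 3.81 FPKM at Day 3 and at most 0.169 FPKM in the other 5 libraries. RNF103-CHMP3 was at 6.5 FPKM at Day 1 and 4.32 FPKM at Day 3. Such entries span separate genes. CHMP3, on the same strand, was at 17.3, 5.9, 13.5, 9.36 and 18.7 FPKM on Days 0, 1, 2, 3 and 4. In the JMJD3c mut-hESCs without and with Dox, CHMP3 was at 13.7 and 12.6 FPKM. CHMP3 was thus lowest at Day 1, where RNF103-CHMP3 was highest. RNF103 was at 2.76 FPKM at Day 0 and 2.62 FPKM at Day 1. How Cufflinks divided the reads between such entries was not tested. Of the members, 7 (2.4%) were readthrough entries, against 0.393% of the 10182 genes. The span of 100 members (34.2%) overlapped another entry, against 29.1%, and 31 (10.6%) overlapped one on the same strand, against 6.7%. MRPL30, a mitochondrial ribosomal protein gene, was at 2.05 FPKM at Day 1, 6.11 FPKM at Day 2 and 2.58 FPKM at Day 3, and near 0 in the other 4 libraries. It has a second entry that overlaps it, which was at 5.79 FPKM at Day 0. The values of these members are therefore uncertain.

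GPX3, a secreted glutathione peroxidase, and SELM, a selenoprotein, had very wide intervals. The highest reference bound was 2618 FPKM for GPX3, whose peak was 51.5 FPKM, and 1757 FPKM for SELM, whose peak was 39.2 FPKM. TANC2, a scaffold of the postsynaptic density, was listed at 9.48 FPKM at Day 1 and between 0.731 and 1.48 FPKM in the other 6 libraries. Its Day 1 interval, 2.21 to 16.7 FPKM, nevertheless overlapped a reference interval that reached 6.31 FPKM.

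Of features that the choice did not use, the median length of the longest transcript was 3845 bases for members and 3844 bases for the 10182 genes. The median GC content was 52.4% and 47.8%. An annotation was matched for 285 members (97.6%), against 99% of the 10182 genes, and 284 (97.3%) were protein coding, against 98.7%. Among chromosomes with a member, the share of genes above 4 FPKM that were members ran from 1.28% on chromosome 10 to 7.48% on chromosome 18 (11 of 147), beside 2.87% for all. It was 4.27% on chromosome 9 and 4.25% on the X chromosome.

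A RefSeq promoter was matched for 215 of the 292 members. The GC box GGGCGG was in 69.3% of them, against 44.6% of all 27305 promoters and 72.8% of the 7866 promoters of genes above 4 FPKM. TATAAA was in 7.91%, against 12% and 4.73%. The NF-Y box CCAAT was in 27.4%, against 35.7% and 37.7%, and the E-box CACGTG in 9.77%, against 7.43% and 10.8%. TGACGTCA and the AP-1 site TGACTCA were in 2.79% each, against 3.61% and 2.54% of the promoters of genes above 4 FPKM. The TCF/LEF site CTTTGAT was in no member, against 1.25% of the promoters of genes above 4 FPKM. The interferon-stimulated response element was added to the search after the sequences were seen. It was in 2 member promoters (0.93%), 1 of them that of BST2. The shares were 0.271% of all promoters and 0.191% of the promoters of genes above 4 FPKM. The IRF9 window held no match to it. The ETS palindrome TTCCGGAA was in 1.4%, against 0.729% and 1.37%, and the serum response element and the SMAD site GTCTAGAC were in none. Both strands were searched, and a match is a description of the letters in the window. The median GC content of the promoters was 65.0% for members, 65.7% for genes above 4 FPKM and 58.3% for all.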

How the data were processed

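Poly(A) RNA of 7 libraries was sequenced, 1 library for each condition. The authors processed the reads with CASAVA 1.4, TopHat2 2.0.13 and Cufflinks 2.1.1 on hg19, per the submitters' processing notes, and deposited FPKM per gene with 95% bounds. Per the paper, the libraries were made with a directional kit, but whether counting used strand is not given in the sources used here. The deposited values hold no read counts. Whole-read steps among low FPKM did not settle the depth: candidate depths of 1 library differed several-fold, with the transcript length correction and between multiples of a step. No depth, read count or floor is therefore given, and the precision is that of the deposited intervals. Of the members, 1 was not marked OK by Cufflinks. Genes on 2483 entries of other sequences were not used, and a few genes that the selection rules name are not reported here.

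The members and lists were chosen with earlier results of these data known. Ratios used FPKM as deposited, and log2 ratios a pseudocount of 1. Most counts are set beside the share of the 10182 genes above 4 FPKM at Day 1 or Day 2, and those of the groups by role are not. Named genes were members with intervals apart from all references (up to 12 per day, without readthrough, small-RNA and short entries under 300 bases), members on a list, genes on either side of the ratio of 1.5, and label checks. Genes named by role, by overlap or by interval width were chosen after their values were seen. Length and GC content came from GENCODE release 44 on GRCh37, the assembly of hg19, with length limited to the span of the entry. Promoters came from RefSeq on GRCh38.p14. Python 3.11.15, numpy 2.4.6, pandas 2.3.3 and matplotlib 3.10.9 were used, and the selection was tested on simulated data. Alternatives changed the ratio, the level, the references, the scaling, the pseudocount and the entries included.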

Additional observations from a re-analysis of the deposited data

How the results depend on the processing

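The 4 main values were 292 members, 13 with intervals apart, 41 above 1.5 times each reference at Day 3, and a median log2 ratio of Day 3 to the peak of -0.67. A ratio above 2 gave 71, 6, 14 and -1.13, and a ratio above 3 gave 19, 3, 3 and -1.70. A minimum of 1 FPKM gave 482 members, and a minimum of 10 FPKM gave 111 members and 13 at Day 3. Day 3 as a further reference gave 184 members and 6 with intervals apart. Without overlapping entries, an alternative chosen after seeing the data, 192 members and 8 with intervals apart remained. Leaving out 1 reference in turn gave 344 to 657 members, 14 to 96 with intervals apart, 54 to 207 at Day 3 and medians of -0.64 to -0.41. Without Day 0 the values were 657, 89, 134 and -0.58, and without Day 4 they were 563, 96, 207 and -0.41. Fewer references give more members by construction. The untreated and the Dox-treated JMJD3c mut-hESCs moved no count by over 1.5 times. Rescaled libraries gave 308 members, 281 of them shared with the 292. The cause of the other changes was not tested. For 16 named genes, 48 values came from pseudocounts of 0.1 and 4 and from the rescaling, and 44 of them stayed within 1.5 times. None reversed, which the choice fixed in advance. A pseudocount cannot reverse a peak above its reference, and the scaling factors were only 0.978 to 1.02. No paired analysis was possible because each condition had 1 library. The limits are the single library per condition, the unsettled depth and the wide intervals at low FPKM.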
